A study of Mus musculus with 4 samples.

Results

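The extracellular matrix of the kidney was followed through 45 named genes for collagens, laminins, adhesive glycoproteins, elastic fibre proteins, proteoglycans and crosslinking enzymes. The members were a fixed list of gene names, matched to the names that the array files give for their non-control probes. They had 84 probes among the 41174 on the array, 27 of them with 2 or more probes and 18 with 1. A gene was kept when the scanner software placed its brightest probe well above background on 2 or more of the 4 arrays. All 45 members passed that filter, of 20001 gene names that did. On all 4 arrays, 42 were well above background. Lum and Vtn missed it in wild type injured kidney, and Vcan, with 2 arrays well above background, was nearest to the filter's limit.

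Each of 4 groups of mouse kidney RNA was hybridised to a single Agilent array read in 1 colour. The groups were C57BL/6 wild type sham, Nlrc5-/- sham, C57BL/6 wild type injured and Nlrc5-/- injured, all from mice labelled 8 weeks old and of C57BL/6 background. Injury was 30 min of bilateral renal ischemia and then reperfusion, for 48 h by the sample titles and the design text and for 24 h by the sample descriptions, a conflict that the sources used here do not settle. The labels do not say which part of Nlrc5 was deleted, whether the deletion was limited to some cells, or whether an array held RNA of 1 mouse or a pool. With 1 array per group no difference between 2 arrays has a replicate check.

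The kidney has an interstitial matrix, made mainly by fibroblasts and pericytes, and basement membranes under tubules, capillaries and podocytes. Fibrillar collagens form the tensile fibres of the interstitium, small leucine-rich proteoglycans such as decorin coat and space those fibres, and type IV collagens with laminins, nidogens and perlecan build basement membranes. After ischemic injury a provisional matrix rich in fibronectin and tenascin-C is laid down before collagens, and lasting deposition of fibrillar collagen is the mark of fibrosis.

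The probes below show which stretch of the transcript was read, by the main values for 4 members and by a further probe for Col1a1 and Tnc. They are printed 5′ to 3′ in lower case, as the array files give them, with positions in the mm9 mouse build. Each held at least 1 reading frame with no stop codon. The capitals in Dcn mark the stop codon that ends the decorin frame. The Fn1, Vtn and Tnc probes span more bases in the genome than they hold, and so cross an exon junction.
Fn1 (A_51_P100856, chr1:71637422-71639659, minus strand): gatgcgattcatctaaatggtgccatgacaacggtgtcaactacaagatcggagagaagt
Col1a1 (A_51_P377094, chr11:94812052-94812111, plus strand): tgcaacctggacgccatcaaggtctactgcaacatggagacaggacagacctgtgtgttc
Bgn (A_52_P162486, chrX:70738554-70738613, plus strand): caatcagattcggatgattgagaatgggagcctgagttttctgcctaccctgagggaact
Dcn (A_51_P334104, chr10:96980233-96980292, plus strand): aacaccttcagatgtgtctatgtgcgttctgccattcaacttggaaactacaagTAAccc
Vtn (A_51_P109840, chr11:78315393-78315665, plus strand): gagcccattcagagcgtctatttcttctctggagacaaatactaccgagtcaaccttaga
Tnc (A_52_P355169, chr4:63674248-63675011, minus strand): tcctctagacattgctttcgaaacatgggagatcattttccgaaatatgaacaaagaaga
Fn1, Bgn, Dcn and Vtn are shown because these are the brightest probes of members with differences described below. The Col1a1 and Tnc probes are further probes of their genes, shown because they differ from the brightest one.

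Levels are log2 of the processed signal minus the 75th percentile of the array, so 0 is a bright gene. Unless said otherwise, 4 levels in a row give the sham arrays first, wild type then knockout, and after them the injured arrays in the same order. A difference of 1 is 2-fold. For a probe not well above background on an array, the difference is a bound, written "at least". Levels of different genes were read by different probes and are not compared with each other. Over 245 probes with 10 spots each, the median SD between spots of 1 probe was 0.09, which gives 0.12 for a difference of 2 single spots. That is the technical spread of an array and leaves out the difference between animals. Brightest-probe spots of Fn1 and Col1a1, each printed 10 times, had SDs from 0.04 to 0.12 on an array.

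Some facts about the arrays bear on every comparison. Wild type injured was the dimmest array, with a 75th percentile of 177 against 353 to 453 on the others, and 67.2% to 74.6% of probes were well above background. Both wild type arrays were on slide 1 and both knockout arrays on slide 2, so genotype and slide cannot be told apart, while each injury comparison lies within a slide. The Nlrc5 probe read -4.05, -3.73, -3.30 and -3.58 and was higher by 0.32 in sham and stood at -0.28 in injured kidney on the arrays labelled knockout, so it does not check the labels and genotypes are named as labelled. Xist, well above background in knockout sham alone at 5.24, and 4 Y-linked genes not well above background there gave that array a female pattern, so sex pattern and group cannot be told apart wherever that array enters. Several adipocyte markers were high in wild type sham, where Cfd read 4.17 against -2.94, -3.95 and, not well above background, -6.55 on the other arrays. Not all listed markers had that pattern. Cidec read 1.73, -3.05, 1.87 and -1.06, Fabp4 was well above background on all 4 arrays, and Lep on none.

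**Figure D1:**
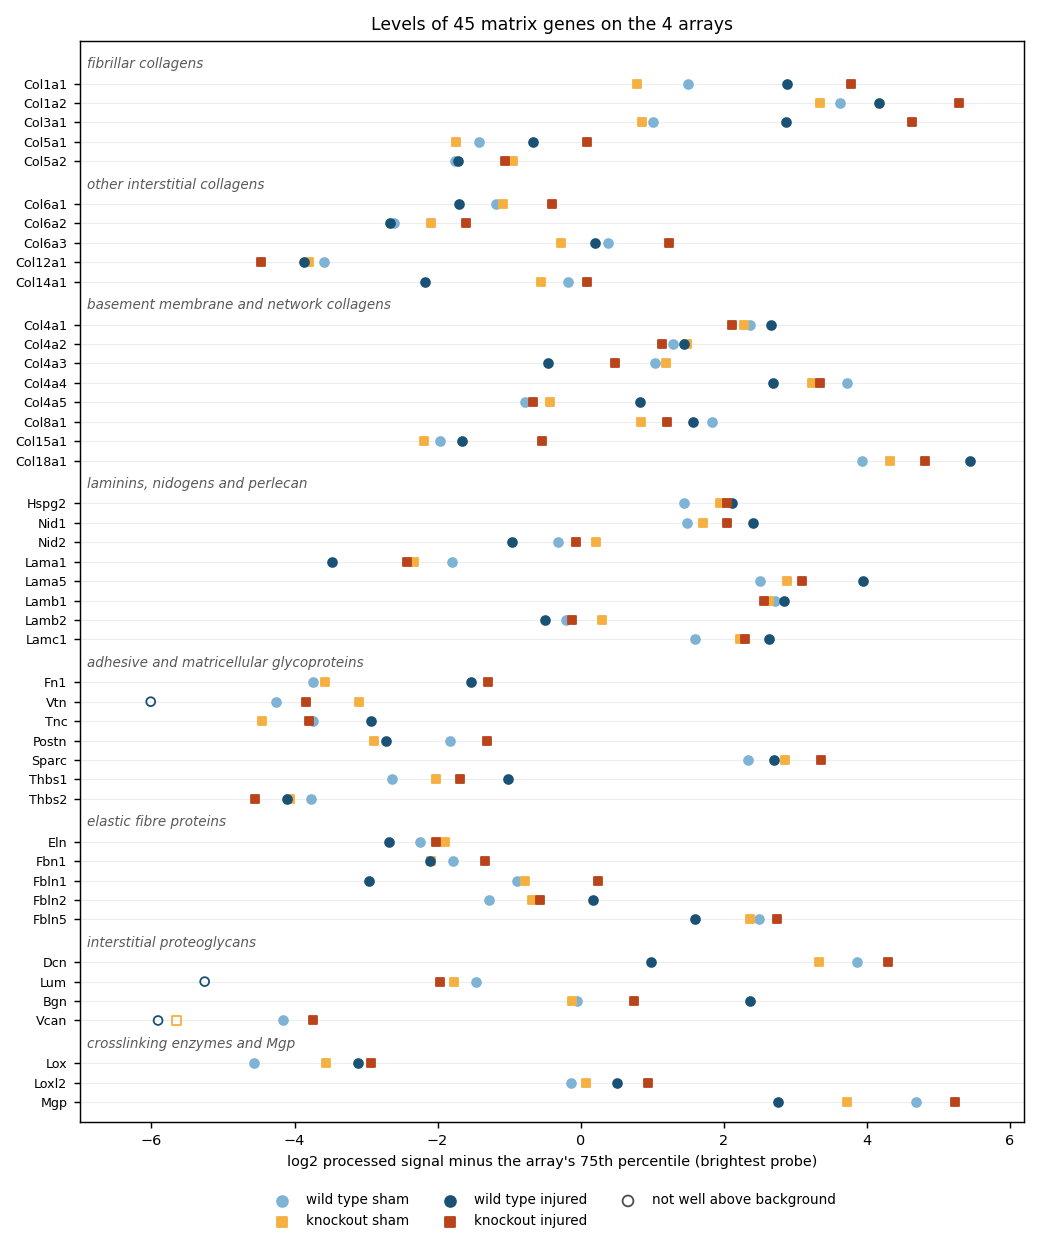
Level of each of the 45 members on each array (x axis, log2 processed signal minus the array's 75th percentile, brightest probe), with 1 row per gene grouped by class, circles for wild type and squares for knockout, and open symbols where the probe was not well above background. Knockout injured holds the highest value for 20 members and wild type injured the lowest for 17.

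Of 5 fibrillar collagen genes, 4 stood higher in injured than in sham kidney of both genotypes, and by their brightest probes the difference was larger on the knockout arrays for these 4. Col3a1, the chain of type III collagen, stood at 1.01, 0.86, 2.87 and 4.62. Both injured arrays were above both sham arrays, by 1.86 in wild type and 3.77 in knockout, or 3.62-fold and 13.6-fold. Col1a1, the main chain of type I collagen, stood at 1.49, 0.78, 2.88 and 3.78, and was 2.61-fold and 8.00-fold higher.

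Col1a2, the partner chain of type I collagen, stood at 3.62, 3.34, 4.16 and 5.28. Its difference was 0.54 in wild type and 1.94 in knockout. Col5a1, which seeds type I fibrils, read -1.43, -1.75, -0.66 and 0.09, with differences of 0.76 and 1.84. For all 4 of these genes both injured arrays lay above both sham arrays. Col5a2, another type V chain, read -1.75, -0.95, -1.72 and -1.05 and so followed genotype and not injury. The class median difference was 0.76 in wild type and 1.94 in knockout, against 0.02 and 0.03 over all genes compared. With the mean over a gene's probes in place of the brightest one, the class medians were 1.42 and 1.55.

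Between injured kidneys the fibrillar class stood higher in knockout for 5 of 5 members by their brightest probes, with a median of 0.90 and a range from 0.67 to 1.75. Further probes did not all give that excess. Col1a1 was 0.90 higher in knockout by the probe that starts at base 4602 of its transcript, but stood at -0.12 and -0.02 by the probes at bases 3909 and 228, the first of which is printed above. Col3a1 was higher by 1.75 with the probe at base 4601, by 0.44 with that at base 350 and by 0.10 with that at base 2541. Col5a1 was 0.75 higher by the probe at base 6263 and stood at -0.85 by that at base 2823.

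The difference between sham and injured kidney had the same direction with each of these probes. Injured exceeded sham kidney by 2.71 (wild type) and 3.61 (knockout) for the Col1a1 probe at base 3909, and by 1.58 and 2.50 for that at base 228. The Col3a1 probe at base 350 was higher by 1.58 and 2.32. The Col5a1 probe at base 2823 was higher by 2.07 in wild type and 0.78 in knockout, so the order of the genotypes turned with the probe. Thus for Col1a1 and Col3a1 the injury difference held for every probe well above background on all 4 arrays, while the size of the excess in knockout over wild type injured kidney depended on the probe. Both Col1a1 further probes also stood lower in knockout sham than in wild type sham, at -1.02 and -0.94, which enters the larger knockout response.

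**Figure D2:**
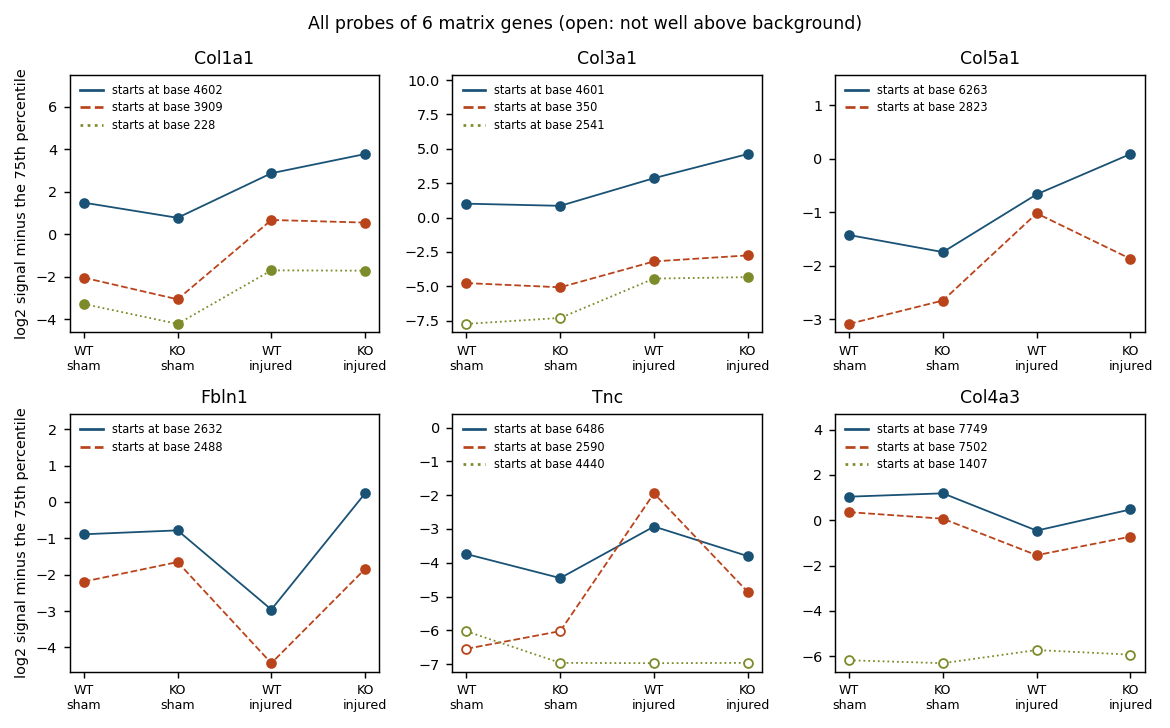
Level of every probe of 6 members on the 4 arrays (y axis, log2 signal minus the array's 75th percentile), with 1 line per probe named by the transcript base at which it starts, and open symbols where it was not well above background. The 3 Col1a1 probes climb together from sham to injured, while only the one at base 4602 is higher in knockout than in wild type injured kidney, and the 2 Fbln1 probes both dip in wild type injured.

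Promoter sequence was at hand for 29 of the 45 members, from RefSeq on the GRCm38.p6 build, with 35 promoters among the 32851 of the table. The 150 bases before the start site are printed for Col1a2 and Col3a1, which were both high in knockout injured kidney, and for Bgn, which was highest in wild type injured. Capitals mark matches to the CCAAT motif, the TATAAA motif and, read on the reverse strand as CCGCCC, the GGGCGG motif, with both strands searched.
Col1a2 (chr6:4505468-4505617, plus strand): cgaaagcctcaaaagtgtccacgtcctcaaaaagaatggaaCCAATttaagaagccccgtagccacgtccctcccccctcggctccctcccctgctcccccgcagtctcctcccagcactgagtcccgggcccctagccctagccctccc
Col3a1 (chr1:45311388-45311537, plus strand): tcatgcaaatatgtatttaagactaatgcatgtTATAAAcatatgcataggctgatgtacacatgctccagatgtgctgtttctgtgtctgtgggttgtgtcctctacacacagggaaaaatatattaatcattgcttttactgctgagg
Bgn (chrX:73483451-73483600, plus strand): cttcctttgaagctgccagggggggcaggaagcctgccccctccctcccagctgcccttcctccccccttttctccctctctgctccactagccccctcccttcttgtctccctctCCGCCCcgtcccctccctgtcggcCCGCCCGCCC
The Col1a2 window held 1 CCAAT, the Col3a1 window 1 TATAAA, and the Bgn window 3 matches to GGGCGG on the reverse strand, 2 of which overlap. Of all promoters in the table, 24.5% held CCAAT in this window, 7.57% TATAAA and 28.6% GGGCGG, against 7, 5 and 15 of the members' 35 promoters. The matches are letters in a window and no measure of binding.

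Over all 45 members, injury in wild type kidney went with differences in both directions. At 2-fold, 11 members were higher and 8 lower, or 24.4% and 17.8% of members, where 14.6% of the 19612 genes compared were higher and 11.7% lower. The members' median difference was 0.03, close to the 0.02 of all genes. The higher members were Col1a1, Col3a1, Col4a5, Col18a1, Fn1, Thbs1, Fbln2, Bgn, Lama5, Lamc1 and Lox. The lower members were Col4a3, Col4a4, Col14a1, Fbln1, Dcn, Lum, Lama1 and Mgp. At 4-fold, 2 were higher and 3 lower, a count for which no share over all genes was taken.

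On the knockout arrays injury went with higher values only, at 2-fold. There 11 members were higher and 0 lower, or 24.4% and 0.0%, where 3.97% of the 19975 genes compared were higher and 2.93% lower. The higher members were Col1a1, Col1a2, Col3a1, Col5a1, Col6a3, Col15a1, Fn1, Postn, Fbln1, Vcan and Mgp, with a median over all members of 0.38 against 0.03 for all genes. Col1a1, Col3a1 and Fn1 were 2-fold higher in both genotypes. Set against wild type sham in place of the knockout sham array of female pattern, 11 members were higher and 0 lower, 7 of them the same. Over all genes, 10.2% were higher and 7.70% lower in that comparison, which crosses slides. It shares the knockout injured array with the comparison within knockout, so the overlap of 7 is no independent check.

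**Figure D3:**
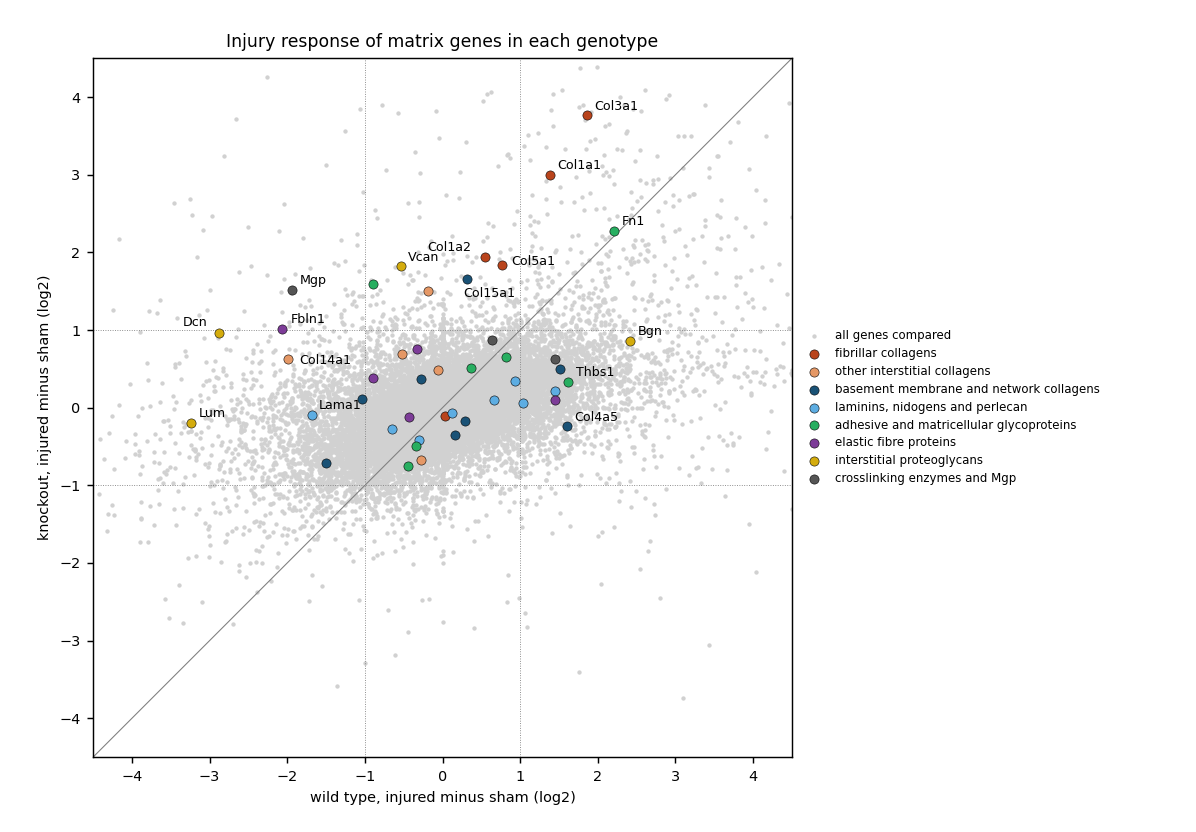
Difference of injured minus sham kidney (log2) in wild type (x axis) and knockout (y axis) for all genes compared (grey) and for the 45 members, coloured by class, with dotted lines at 2-fold, the diagonal as a line of equal response, and axes limited to 4.5 on either side. Fibrillar collagens lie above the diagonal at the upper right except Col5a2, and Fn1 lies on that line. Dcn, Lum, Fbln1, Mgp, Col14a1, Lama1, Col4a3 and Col4a4 lie at the left, lower at 2-fold in wild type alone.

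Interstitial proteoglycans differed between the injured kidneys in both directions. Their class median was 1.85 and rests on the bounds of Lum and Vcan. It was 0.84 over the members well above background on all 4 arrays, 1.04 with the mean over probes, and 0.25 with normexp fitted without spots of very high local background. Dcn, which encodes decorin, stood at 3.86, 3.33, 0.97 and 4.29, with wild type injured far below the other 3 arrays. It was 7.38-fold lower after injury in wild type (-2.88) and stood 0.96 higher in knockout, so that knockout injured exceeded wild type injured by 3.31, or 9.94-fold. Lum, which encodes the related lumican, read -1.46 and -1.77 in the sham arrays and -1.97 in knockout injured, while its wild type injured signal was not well above background. It was at least 9.41-fold lower after injury in wild type and at least 6.65-fold higher in knockout than in wild type injured. Dcn and Lum are next to each other on chromosome 10 in the gene table.

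Bgn, which encodes biglycan, another small proteoglycan, ran the other way. It read -0.06, -0.12, 2.36 and 0.74, highest in wild type injured. It was 5.35-fold higher after injury in wild type and stood 0.86 higher in knockout, and knockout injured stood at -1.62 relative to wild type injured. Vcan, a large proteoglycan, was near background, at -4.17 in wild type sham and -3.74 in knockout injured, and not well above it on the other arrays. It was at least 3.54-fold higher after injury in knockout and at least 2.64-fold lower in knockout than in wild type sham. The Lum value was sensitive to background correction: with normexp, fitted without spots of very high local background, it stood at -0.76 after injury in wild type, while Dcn stood at -2.99.

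Mgp, Fbln1 and Col14a1 were likewise lowest in wild type injured. Mgp, an inhibitor of calcification found in vessel walls, stood at 4.69, 3.72, 2.75 and 5.24. It was at -1.94 after injury in wild type and 1.52 higher in knockout, opposite directions that both passed 2-fold. Fbln1, which encodes the elastic fibre and basement membrane protein fibulin-1, read -0.89, -0.78, -2.96 and 0.24. Wild type injured was again the lowest array, and knockout injured exceeded it by 3.19, or 9.15-fold. A further Fbln1 probe gave -2.24 after injury in wild type and 2.59 between injured kidneys. That probe stood at -0.19 after injury in knockout, where the brightest stood at 1.02, so the direction in knockout depended on the probe.

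Col14a1, a collagen that sits on fibril surfaces, stood at -0.18, -0.55, -2.17 and 0.08, with a difference of -1.99 after injury in wild type and 0.63 in knockout. Postn, which encodes periostin, a matricellular protein of healing tissue, read -1.82, -2.89, -2.72 and -1.31. It was lower in knockout than in wild type sham by 2.10-fold (-1.07) and higher between injured kidneys by 2.66-fold. Wild type injured lay between the sham arrays, and knockout injured was 0.52 above wild type sham. Lama1, a laminin chain of tubular basement membranes, read -1.80, -2.34, -3.48 and -2.43 and was lower after injury in wild type (-1.68). With the same normexp fit the wild type difference was -0.77 for Fbln1, -1.23 for Col14a1, -0.21 for Lama1 and -2.06 for Mgp.

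Several fibroblast and pericyte markers were low on the same array as these members. Of 10 listed markers 8 or 9 were well above background on each array, and their summed level was 2.94, 2.92, 2.46 and 3.45. Thy1 read -0.32, -0.93, -2.28 and 0.54, Tcf21 -1.51, -1.99, -3.42 and -1.49, and Pdgfra -0.28, -0.81, -1.25 and 0.16. Other listed markers did not have that pattern: Gli1 was highest in wild type injured, at -3.88, Pdgfrb stood at 0.01 after injury in wild type, and Rgs5 was lowest in knockout injured, at -1.11. The median of the 8 compared was -0.91 after injury in wild type, 0.46 in knockout and 1.15 between injured kidneys. Endothelial markers, 8 of 8 well above background on every array, had a median of 1.66 between injured kidneys, and podocyte markers, 7 of 7, a median of 1.46. Macrophage markers, 5 or 6 of 6 well above background, had medians of 2.17 there and -1.77 after injury in wild type. Among them Cd68 went the other way, at -1.24 between injured kidneys and 2.81 after injury in wild type. C1qb stood at 0.49 and -0.10. Tubule markers, 8 of 8, had a median of -1.04 after injury in wild type. In knockout relative to wild type injured kidney, 4 of them were 2-fold higher and 1 lower, against 8.41% and 7.19% of all genes. The lower one was Atp6v1g3, at -1.20, and Aqp2 stood at -0.28 there. Smooth muscle and myofibroblast markers stood at a median of -0.99 between injured kidneys, with Acta2 at 2.91, 3.11, 3.48 and 2.94. The part of these cells in the matrix values was not tested, and in whole kidney RNA fewer cells of a type and less RNA per cell cannot be told apart. Adipocyte markers had summed levels of 5.72, 3.77, 3.07 and 3.27, with 6 of 7 well above background in wild type sham, 3 or 4 on the others, and Adipoq and Plin1 in wild type sham alone. Urothelium markers had summed levels of 2.14, 0.57, -0.23 and 0.16, with 2 of 5 well above background in wild type injured. Both lists were highest in wild type sham. Their part in the wild type injury differences was not tested.

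**Figure D4:**
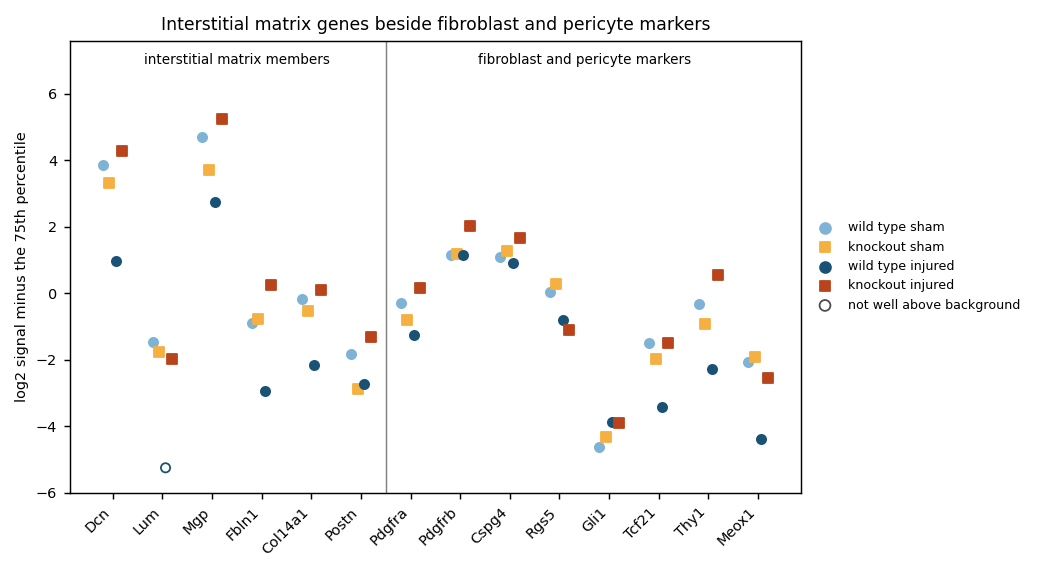
Levels on the 4 arrays (y axis, log2 signal minus the array's 75th percentile) of 6 interstitial members and of the 8 fibroblast and pericyte markers well above background on at least 2 arrays, with open symbols where the probe was not well above background. Wild type injured is the lowest point for Dcn, Lum, Mgp, Fbln1, Col14a1, Pdgfra, Cspg4, Tcf21, Thy1 and Meox1. It is not the lowest for Postn, Pdgfrb, Rgs5 or Gli1.

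The 3 type VI chains stood highest in knockout injured. Type VI collagen forms beaded filaments around cells, and its chains Col6a1, Col6a2 and Col6a3 were higher in knockout than in wild type injured kidney by 1.30, 1.07 and 1.04. Col6a1 read -1.19, -1.09, -1.71 and -0.40. Col6a2, its neighbour on chromosome 10, read -2.60, -2.09, -2.67 and -1.60. Col6a3 read 0.38, -0.27, 0.19 and 1.23, and was 2.83-fold higher after injury in knockout, while it stood at -0.18 in wild type. Set against wild type sham, its difference in knockout injured was 0.86. Col12a1, a fibril-associated collagen, read -3.59, -3.79, -3.86 and -4.47, lowest in knockout injured and less than 2-fold apart in every comparison.

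Basement membrane collagens split by chain. The ubiquitous chains Col4a1 and Col4a2, neighbours on chromosome 8, were less than 2-fold apart in every comparison, with differences from -0.56 to 0.29. Col4a3 and Col4a4, chains of the mature glomerular basement membrane and neighbours on chromosome 1, were lower in wild type injured than on the other arrays. Col4a3 stood at 1.04, 1.19, -0.46 and 0.48, and Col4a4 at 3.72, 3.23, 2.69 and 3.34. Their differences after injury in wild type were -1.50 and -1.03, and a further probe of each gave -1.90 and -1.24. Podocyte markers, from the cells that make these chains, had a median of -1.80 in that comparison, and their part was not tested.

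Col4a5, which pairs with Col4a3 and Col4a4 in that network, went the other way in wild type. It read -0.79, -0.43, 0.82 and -0.66, with wild type injured 3.05-fold above its sham array and knockout injured 2.80-fold below wild type injured. Col18a1, which carries the endostatin fragment, read 3.93, 4.32, 5.44 and 4.81 and exceeded sham by 1.52 in wild type and 0.50 in knockout. A further Col18a1 probe gave 1.37 and 0.19. Col15a1, its relative in capillary and muscle basement membranes, read -1.97, -2.19, -1.66 and -0.54. It was 3.15-fold higher after injury in knockout and 1.24-fold in wild type.

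Laminins differed in both directions after injury in wild type, with Lama5 and Lamc1 higher and Lama1, described above, at -1.68. None was 2-fold apart after injury in knockout. Lama5, the main laminin alpha chain of mature kidney basement membranes, stood at 2.50, 2.88, 3.94 and 3.10, and was higher by 1.45 after injury in wild type and by 0.22 in knockout. Lamc1, the common gamma chain, stood at 1.60, 2.23, 2.63 and 2.29, and was higher by 1.03 and 0.06. Lamb1, Lamb2, Nid1, Nid2 and Hspg2, which encodes perlecan, were less than 2-fold apart in every comparison. Over these 8 genes, Lama1 included, the median difference after injury was 0.39 in wild type and -0.00 in knockout.

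Among adhesive glycoproteins, Fn1 was higher after injury on both slides. Fn1, which encodes fibronectin, read -3.74, -3.57, -1.53 and -1.29, with both injured arrays above both sham arrays. Its differences were 2.21 in wild type and 2.28 in knockout, 4.62-fold and 4.86-fold, a gap of 0.07. Its further probes were not well above background in sham kidney. Thbs1, which encodes thrombospondin-1, an activator of latent TGF-beta, read -2.64, -2.02, -1.02 and -1.69. It was 3.08-fold higher after injury in wild type and 1.26-fold in knockout. The further Thbs1 probes gave 0.76 and 0.67 in wild type, below 2-fold.

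Vtn, which encodes the plasma protein vitronectin, read -4.26 and -3.10 in the sham arrays and -3.84 in knockout injured. Its signal in wild type injured was not well above background. It was 2.23-fold higher in knockout than in wild type sham. Tnc, which encodes tenascin-C, read -3.74, -4.45, -2.93 and -3.80 by its brightest probe, with wild type injured the highest array and no comparison at 2-fold. The Tnc probe printed above was not well above background in either sham array and read -1.94 and -4.87 in the injured arrays, wild type first, a difference of -2.92 between injured kidneys. Both probes gave the same direction there. Sparc and Thbs2 were less than 2-fold apart in every comparison.

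Of the elastic fibre genes, Fbln2 and Fbln5 differed beside Fbln1. Fbln2, which encodes fibulin-2, read -1.28, -0.68, 0.17 and -0.57 and was 2.72-fold higher after injury in wild type. Fbln5, which encodes fibulin-5, needed for elastic fibre assembly, stood at 2.49, 2.37, 1.60 and 2.75, and was 2.22-fold higher in knockout than in wild type injured. Eln, which encodes elastin, and Fbn1, which encodes fibrillin-1, were less than 2-fold apart by their brightest probes. A further Fbn1 probe stood 1.06 higher after injury in wild type, where the brightest stood at -0.32, so its direction there depended on the probe. Lox, which encodes the crosslinking enzyme lysyl oxidase, read -4.56, -3.56, -3.11 and -2.93. It was 2.73-fold higher after injury in wild type and 2.01-fold higher in knockout than in wild type sham. Loxl2, a related enzyme, was higher after injury by 0.64 and 0.87, below 2-fold.

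Between the sham kidneys few members differed. Vtn and Lox were 2-fold higher in knockout and Postn and Vcan 2-fold lower, so 2 were higher and 2 lower, or 4.44% each. Of the 19913 genes compared, 4.56% were higher and 2.76% lower. The balance depended on scaling: 62.3% of the 2-fold calls over all genes were higher in knockout sham, against 39.4% with median scaling and 48.9% with quantile normalization. Both higher members fell below 2-fold with quantile normalization, in the authors' value table and with normexp. Postn and Vcan also fell below 2-fold with normexp, at -0.63 and -0.29. The members' median was -0.07, and this comparison has no value without the array of female pattern.

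**Figure D5:**
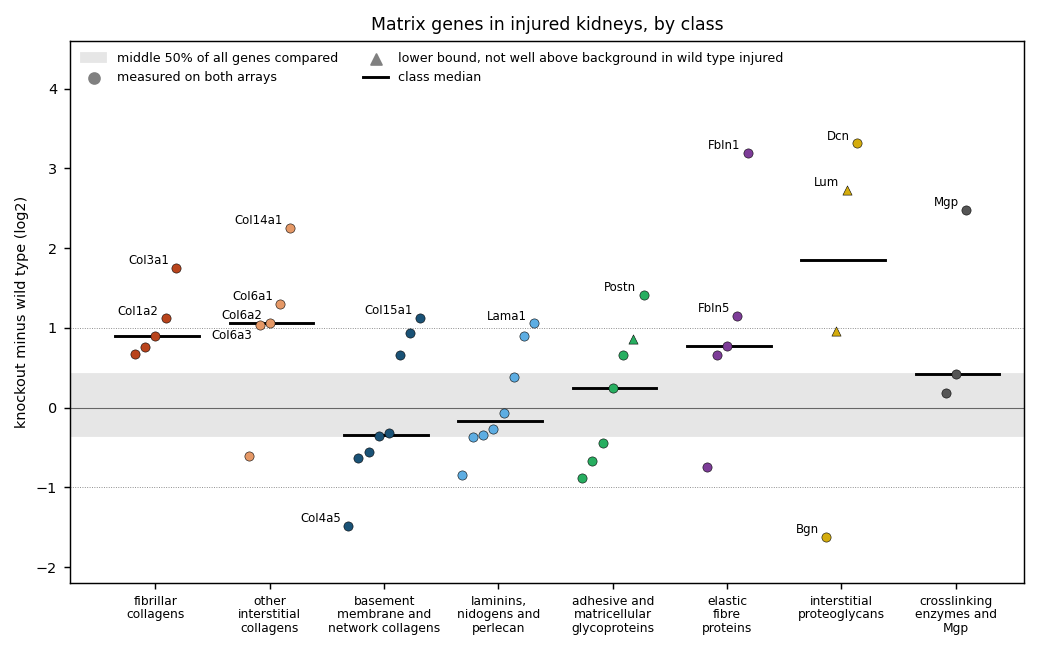
Difference of knockout minus wild type injured kidney (y axis, log2) for each of the 45 members by class, with triangles for lower bounds, a black bar for the class median, a grey band for the middle 50% of all genes compared and dotted lines at 2-fold. Interstitial proteoglycans, with 2 of 4 members as bounds, and other interstitial collagens have class medians of 1.85 and 1.07 (0.25 and 0.62 with normexp fitted without spots of very high local background), and basement membrane collagens and laminins lie around the band, at -0.34 and -0.17.

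The injured arrays shared a male pattern of sex-chromosome genes, and 14 members were 2-fold higher in knockout and 2 lower, or 31.1% and 4.44%, where 8.41% of the 19784 genes compared were higher and 7.19% lower. The higher members were Col1a2, Col3a1, Col6a1, Col6a2, Col6a3, Col14a1, Col15a1, Lama1, Postn, Fbln1, Fbln5, Dcn, Lum and Mgp, and the lower ones Col4a5 and Bgn. The median over all members was 0.66 against 0.03 for all genes. Of the 14 members, 6 were also 2-fold lower after injury in wild type: Col14a1, Fbln1, Dcn, Lum, Lama1 and Mgp. The wild type injured array enters both comparisons, so a low value there counts in each. This overlap is therefore no separate result, and it was not counted over all genes. With normexp fitted without spots of very high local background the count was 8 higher and 2 lower. In that setting 790 of the 19784 genes compared were higher and 747 lower.

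The difference between the injury responses was taken over 42 members well above background on all 4 arrays, counted with sign. It was at least 2-fold greater in knockout for 16 and smaller for 6, or 38.1% and 14.3%, against 8.88% and 9.85% of 17662 genes. The largest were Dcn at 3.84, Mgp at 3.45, Fbln1 at 3.09, Col14a1 at 2.62 and Postn at 2.48. The 6 smaller ones were Col4a5 at -1.84, Bgn at -1.56, Fbln2 at -1.34, Thbs1 at -1.28, Lama5 at -1.23 and Col18a1 at -1.02. With the mean over a gene's probes in place of the brightest one, 8 were greater, and the share over all genes was not taken in that setting. These differences hold both sham arrays, so the sex pattern of knockout sham enters each of them.

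Tested over both genotypes with limma, 0 of the 45 members passed an adjusted p of 0.05 for injury, where 0.0% of 20001 genes did. At an unadjusted p under 0.05 Bgn, Col1a1, Col3a1, Col5a1, Fn1 and Lox were higher and Col4a3 and Vtn lower, or 6 and 2 members, against 5.1% and 5.63% of all genes. Fn1 had the smallest p among members, at 0.0017 by limma, with a difference of 2.24 (SE 0.26), higher in 2 of 2 injured arrays. Its adjusted p was 0.445. Col3a1 had a difference of 2.81 (SE 0.57, limma adjusted p = 0.445). The Vtn fit used its own signal in wild type injured, which was dim there.

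For genotype over both operations limma called 0 members, as of all genes (0.0%). At an unadjusted p under 0.05, Vtn was higher and Tnc lower, 1 member each, against 3.93% and 1.97% of all genes, and the smallest adjusted p was 0.722. The fit had 1 residual degree of freedom and took the difference between the responses as error, and its p-values reflect no spread beyond that of these 4 arrays. With normexp fitted without spots of very high local background limma called Bgn, Col1a1, Col3a1 and Fn1 higher after injury, 4 members where 5.05% of genes were called, and Dcn higher in knockout, where 0.885% were.

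By their brightest probes, the other 16 members were less than 2-fold apart in every comparison of 2 arrays, with differences from -0.998 to 0.93. The levels of those probes ran from -4.56 to 3.36. These members were Col5a2, Col4a1, Col4a2, Col8a1, Col12a1, Tnc, Sparc, Thbs2, Eln, Fbn1, Hspg2, Nid1, Nid2, Lamb1, Lamb2 and Loxl2. Further probes passed 2-fold for Tnc, at -2.92 between injured kidneys, and for Fbn1, at 1.06 after injury in wild type. Col8a1, a network collagen of vessel walls, was just inside that limit at -0.998 in knockout relative to wild type sham, and its further probe stood at -1.82 there and at -1.79 between injured kidneys. Sparc, which encodes a collagen-binding matricellular protein, read 2.33, 2.85, 2.69 and 3.36, and its further probe read 1.94, 2.28, 2.31 and 2.74.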

How the data were processed

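Members and gene lists were chosen with earlier results of these data known. The deposited scanner output gives an intensity per spot, background-subtracted by Agilent Feature Extraction within each array (version 10.7.3.1 per the file headers, 9.1 per the submitters' processing notes). A deposited table holds the authors' log2 values of the same arrays, with column medians of 5.91 to 5.93 and a normalization not given in the sources used here, and was used as an alternative. After removal of control spots and outlier flags, repeated spots were averaged per probe, which kept 41142 of 41174 probes and all 84 of the members. No spot was saturated. The probe with the highest mean represented a gene. For a dim probe the value was the higher of its own and the array's lowest well above background. Differences were counted at 2-fold. Named members are those 2-fold apart in a comparison of 2 arrays. The limma fit (version 3.58.1, R 4.3.3) had genotype and operation as additive terms, with Benjamini-Hochberg adjustment over 20001 genes, and was tested on simulated data. Alternatives covered scaling, background correction (normexp, offset 50), the authors' table, probe choice, filters, 4-fold, and leaving out arrays. The number of arrays limits the precision.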

Additional observations from a re-analysis of the deposited data

Results flagged for a closer look

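Fbln1 and Mgp were flagged because by their brightest probes the injury responses passed 2-fold in opposite directions in the 2 genotypes. The response of Fbln1 in knockout minus that in wild type was 3.09, and that of Mgp 3.45. Postn was flagged because its genotype difference did so between operations, at -1.07 in sham and 1.41 in injured kidneys, a gap of 2.48. None of these gaps was tested, since each group held 1 array, and each rests on the knockout sham array of female pattern. Set against wild type sham, knockout injured stood higher by 1.13 for Fbln1, by 0.55 for Mgp and by 0.52 for Postn. The further Fbln1 probe stood at -2.24 after injury in wild type and -0.19 in knockout, the same direction. With normexp fitted on all spots Fbln1 stood at -0.77 and 0.84, neither at 2-fold. The Postn difference between sham kidneys also fell below 2-fold with normexp, as described above.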

How the results depend on the processing

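Of 50 member differences at 2-fold, 456 alternative values were computed, of which 454 kept the direction, 377 stayed at 2-fold and 2 left no difference as a bound. The 456 include 50 values without a filter and 45 with the filter at all 4 arrays. A filter changes only which genes are kept, so those values could not differ from the main ones. At a 4-fold threshold the counts of higher and lower members were 2 and 3 for injury in wild type, 3 higher for injury in knockout, 0 and 0 between sham, 5 and 0 between injured kidneys, and 5 greater and 0 smaller responses. No share over all genes was taken at 4-fold, so these counts have no background beside them. Between sham kidneys, 1 member was higher and 4 lower with median scaling, 0 higher with quantile normalization and in the authors' table, and 1 and 1 among genes well above background on all 4 arrays. Each normexp fit gave 0 higher and 1 lower there. Normexp fitted on all spots gave 17 higher for injury in knockout, 7 higher between injured kidneys, 10 greater responses and 15 limma calls for injury. Limma then called 32.2% of all genes for injury, so 15 of 45 members is near the share over all genes. Between injured kidneys 736 of 19784 genes were 2-fold higher in that setting. Fitted without outlier-flagged spots, normexp gave 6 higher between injured kidneys, 10 greater responses and 15 limma calls for injury. Of all genes 31.8% were called for injury there, and 632 of 19784 were higher between injured kidneys. Both fits were shifted by 4 spots on the knockout injured array with a local background of up to 11116, where the median was 35: with the fit on all spots 6011 of all genes were 2-fold higher and 647 lower for injury in knockout, against 425 and 232 when those spots were left out of the fit. The fit without those spots, chosen after seeing the data, gave 8 higher between injured kidneys, 4 limma calls for injury and 1 for genotype. Of all genes 790 of 19784 were higher between injured kidneys there, and limma called 5.05% for injury and 0.885% for genotype. The offset of 50 weighs most on dim genes and on the dimmer wild type injured array. The mean over probes gave 8 greater responses. The share of all genes with a greater response was taken in the main setting only, so the response counts of the alternatives have no background beside them. With 1 array left out, limma was fitted with the tested term alone, on 1 array against 2, the lone array assumed to vary like the others. Calls from these fits are not given, because a lone array has no spread of its own. No paired analysis beyond the injury fit was possible, because each group holds 1 array. The slide, the only pairing, equals genotype and was already a term of the injury fit.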

Other observations

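Of 18 listed genes that process collagens, 3 were 2-fold higher after injury in wild type (Serpinh1, a collagen chaperone, at 1.03, Pcolce2 at 1.02 and Loxl3 at 1.02) and 1 in knockout, Adamts2, the procollagen N-proteinase, at 1.95. Of all genes, 14.6% were higher in wild type and 3.97% in knockout. Adamts2 read -0.18, -0.82, 0.14 and 1.14 on the arrays, in the order used above. Between injured kidneys Pcolce, which speeds removal of the collagen propeptide, was higher by 1.10 and Loxl1 by 1.01, and Pcolce2 stood at -1.29.

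Of 18 receptors that bind the matrix, 7 were 2-fold higher and 3 lower after injury in wild type, and 3 higher and 0 lower in knockout. Of all genes, 14.6% were higher and 11.7% lower in wild type, and 3.97% and 2.93% in knockout. Between injured kidneys 3 receptors were higher and 5 lower, against 8.41% and 7.19% of all genes. Cd44, the hyaluronan receptor, stood at -2.78, -2.88, 0.10 and -1.50, higher by 2.89 and 1.39. Itgb4, the integrin chain of hemidesmosomes, was higher by 1.97 in wild type and by 0.04 in knockout. Itga8, an integrin chain of mesangial cells, read 0.05, 0.73, -2.27 and 0.23 and was lowest in wild type injured, at -2.32 after injury in wild type and 2.50 between injured kidneys. Ddr2, a receptor for fibrillar collagen on fibroblasts, stood at -1.05 in wild type and 1.02 in knockout. Sdc1, which encodes syndecan-1, stood at 1.75 after injury in wild type and -1.78 between injured kidneys. None of these differences has a replicate check.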
